A study of Mus musculus with 32 samples.

Results

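The genes encoding the proteins of the cytosolic ribosome were followed as a set through a microarray study of hypoxia-ischemia (HI) in the newborn mouse brain. A gene was taken when its symbol was Rpl or Rps followed by digits, with an optional a, l or x at the end, or was Rplp0, Rplp1, Rplp2 or Rpsa, and symbols ending in -ps and those of the ribosomal S6 kinases were left out. This rule used no measured value. It gave 82 genes read by 169 probes, of 20832 named genes and 39429 probes on the array, with 50 genes for the large (60S) subunit and 32 for the small (40S) subunit.

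All animals were NMRI mice, with no engineered allele named in the labels. HI consisted of a permanent ligature of the right carotid under isoflurane followed by 40 min in 8% O2, at postnatal day 5 (P5) or 10 (P10), the day of birth being day 1. Right forebrain hemispheres were collected 3, 6, 12 or 24 h later and compared on the same array with hemispheres of naive mice matched for age and time, which had neither ligature nor hypoxia. Each RNA came from a pool of 6 mice of matched sex, with 3 arrays per age and time point (24 arrays, HI in the red dye Cy5 and naive in the green dye Cy3 on every one, hence no dye swap). Another 8 arrays compared naive pools at P2 and P15, 4 of each age, with each pair of pools hybridized in both dye orders. A pool averages over its mice, so that the spread between arrays is the spread between pools. In whole hemispheres, fewer cells of a type and less RNA per cell cannot be told apart.

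Ribosomal proteins join ribosomal RNA to form the 2 ribosome subunits, and their genes are transcribed at a high rate in every growing cell. Their mRNAs typically begin with a C followed by an unbroken run of pyrimidines, the 5′ terminal oligopyrimidine (TOP) motif, through which mTOR signalling sets how strongly they are translated. Because their mRNA is abundant and steady in many settings, several of them (Rplp0, Rpl13a, Rps18, Rpl19 and Rpl32) serve as reference genes for quantitative PCR. In the immature brain the demand for ribosomes is linked to the growth of neurons and the division of precursors.

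The start sites of some of the members named in the results below are shown for their pyrimidine run. Of the 82 genes, 61 were in the RefSeq promoter table used here (GRCm38.p6) and 21 were not. Each window runs 5′ to 3′ on the gene's own strand, from 20 bases before the annotated start to 10 bases from it, with its longest unbroken run of C and T in capitals.
Rpl4 (chr9:64173367-64173396, + strand): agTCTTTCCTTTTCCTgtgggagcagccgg
Rps25 (chr9:44407694-44407723, + strand): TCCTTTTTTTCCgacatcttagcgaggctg
Rpl14 (chr9:120571497-120571526, + strand): cggcagggcgggCCCTCTCTCTTCTCgctg
Rpl31 (chr1:39367831-39367860, + strand): caCCTCTTCCTCCTCgcctccccgtgaccc
Rps6 (chr4:86857358-86857387, - strand): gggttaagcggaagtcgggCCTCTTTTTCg
Rps18 (chr17:33955656-33955685, - strand): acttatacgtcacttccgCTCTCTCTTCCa
Rpl39 (chrX:37085213-37085242, - strand): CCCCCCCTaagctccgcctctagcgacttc
Rpl23 (chr11:97782430-97782459, - strand): gctggacgaggTCCggtcacgtggctgagt

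In Rps6, Rps18 and Rpl14 the run lies across the annotated start. In Rpl4, Rps25, Rpl31 and Rpl39 it ends before that start, and in Rpl23 the longest run in the window has 3 bases. Other members named below have windows not shown here. Within those windows their longest run had 4 bases in Rpsa, 5 in Rplp0 and 8 in Rpl13a. It had 9 or 4 bases in Rps27l and 4 or 5 in Rpl22, by annotated start. In Rpsa and Rpl13a the run reached the end of the window. Over the 50 bases centred on the start, the longest run had 5 bases in Rpsa, 7 in Rplp0 and 14 in Rpl13a. Over the same 50 bases, an unbroken run of at least 8 pyrimidines on the gene's own strand was present in 33 of the 61 members (54.1%) and in 6014 of all 27025 genes of the table (22.3%). The median longest run was 9 bases in the members and 5 in all genes. A run is a description of these letters, since annotated starts can be off by several bases.

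Array quality and naming limits were shared by all results. Of the 169 member probes, 163 (79 genes) reached the signal limit in at least 1 HI group, that is a mean signal of 100 in 1 dye and a ratio on at least 2 arrays. Those that did not reach it included the probes for Rpl10l (2 probes), Rpl39l and Rpl3l, paralogs best known from testis and muscle, and 1 probe of Rpl6. Ribosomal protein genes have many processed pseudogenes, and the array files hold no probe sequences, so that signal from near-identical copies cannot be told apart from that of the named gene. All P5 arrays with the same replicate number shared a slide (slides 1 to 3), as did those at P10 (slides 4 to 6), so that age and slide cannot be told apart for these groups. P5 slide 3 stood apart from slides 1 and 2 in its naive signal, as described with the developmental values.

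After HI, the ribosomal protein mRNAs as a set stayed close to the naive level at both ages and all 4 times. On the log2 HI over naive scale, the median over members at 3, 6, 12 and 24 h was 0.014, 0.056, 0.078 and 0.066 after HI at P5, and -0.020, -0.052, -0.029 and 0.062 after HI at P10. Medians over all probes tested lay between -0.020 and 0.00011, so the median member moved by a few percent at most in these values.

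The SD of the members' medians among the 3 arrays of a group ran from 0.015 (P10 24 h) to 0.065 (P5 6 h). At P5 6 h the array medians ran from 0.0061 to 0.13, all above 0. The SD was about as large as the group's own shift there, and also at P10 6 h (SD 0.054). At P10 24 h the 3 array medians ran from 0.047 to 0.076 (SD 0.015), all above the median over all probes on the same arrays, which ran from -0.015 to 0.014. At P10 12 h they ran from -0.046 to -0.017 and at P10 6 h from -0.11 to -0.013, all below 0, but on replicate 1 the median over all probes was no higher (-0.040 and -0.014). At P5 12 h they ran from 0.034 to 0.12 and at P5 24 h from 0.023 to 0.096, all above 0, while at P5 3 h and P10 3 h the arrays fell on both sides of 0. These small shifts depended on how background was removed. With normexp background correction and loess, the members' medians were 0.074, 0.18, 0.17 and 0.12 at P5 and -0.0012, 0.0039, 0.035 and 0.092 at P10, so that those at P10 6 h and 12 h changed sign.

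Members also varied less among themselves than other probes did. At P10 24 h, 90% of member probes lay between -0.26 and 0.42, and 90% of all probes tested between -0.95 and 0.79. In the same group 128 of 160 member probes were within 1.2-fold of naive (80%), compared with 9249 of 19145 probes in all (48.3%). Of these, 142 of the members but only 1882 of all probes had a naive signal of at least 10000 units. The spread of equally bright probes was not compared, so the narrow range cannot be called particular to the family. At P5 3 h these shares were 94.4% and 81.8%. Large and small subunit genes had medians close to each other, for example 0.072 and 0.042 at P10 24 h. Their signs were opposite at P5 3 h (0.030 and -0.019) and at P10 12 h (-0.044 and 0.010).

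**Figure D1:**
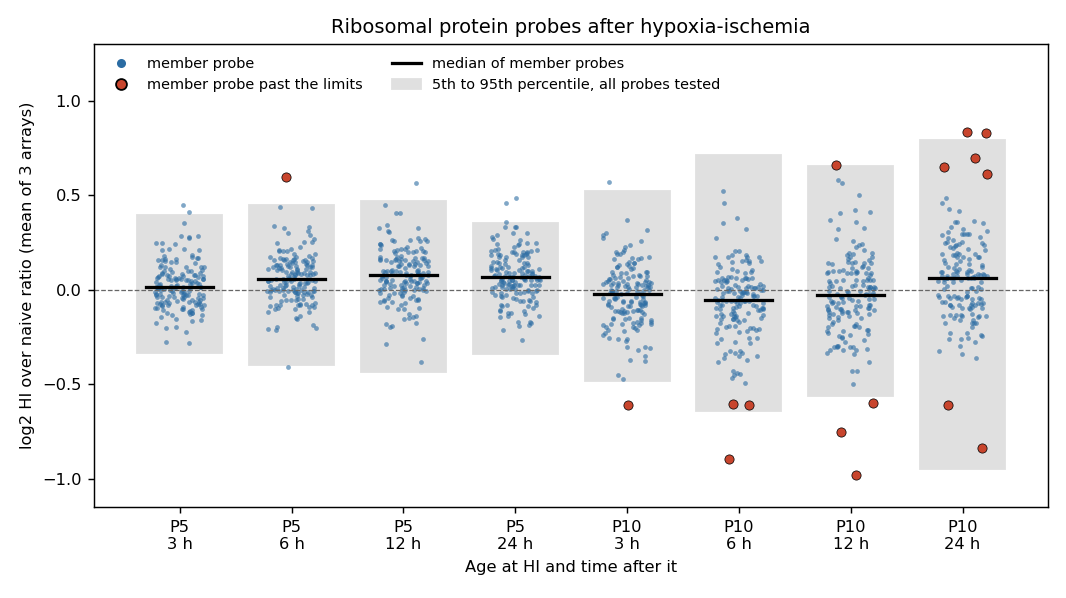
Log2 HI over naive ratio of each ribosomal protein probe (points, mean of 3 arrays) by age and time after HI, with the median of the members (black line), the probes past the limits in red and the range holding 90% of all probes tested in grey. Most members lie well inside the grey range in all 8 groups, with 1 red point at P5 (6 h) and 1, 3, 4 and 7 at P10 3, 6, 12 and 24 h.

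Few members were called, which needed a change over 1.5-fold and an adjusted p under 0.05 by limma across all probes. In the P5 groups, 0 of 160 member probes passed after 3 h (2.42% of all probes tested), 1 of 161 after 6 h (3.35%), 0 after 12 h (4.55%) and 0 after 24 h (1.85%). In the P10 groups 1 of 160 passed after 3 h (4.95%), 3 of 160 after 6 h (12.8%), 4 of 162 after 12 h (9.19%) and 7 of 160 after 24 h (19.2%). The last 7 comprised 5 higher (9.31% of all probes) and 2 lower (9.85%). Over the 4 times, 11 of 162 probes, of 11 genes, passed at least once at P10, beside 28.5% of all probes, and 1 of 161 at P5, beside 7.23%. Called probes at P10 3, 6 and 12 h were 0, 0 and 1 higher (3.6%, 6.93% and 5.37% of all probes) and 1, 3 and 3 lower (1.35%, 5.91% and 3.82%). The members' share was below that of all probes in every group, by the most at P10 24 h (4.38%). Most members are bright, and at P5 bright probes were called less often in general. Of 142 members with a naive signal of at least 10000 units, 0, 1, 0 and 0 were called at P5 3, 6, 12 and 24 h, near the 0.584%, 1.06%, 1.97% and 0.584% of all probes that bright.

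Without the size limit, members passed more often, with small changes. At an adjusted p under 0.05, 11, 16, 25 and 14 member probes passed at P5 (8.43%, 15.2%, 17.6% and 6.5% of all probes at 3, 6, 12 and 24 h). Of these, 9, 14, 23 and 14 were higher (4.42%, 6.84%, 7.51% and 3.55% of all probes). HI was in Cy5 on every array, so a probe that reads higher in Cy5 by its dye alone also counts as higher. The counts of this paragraph were not corrected for dye. At P10 31, 44, 55 and 61 passed (25.1%, 41.5%, 34.7% and 50.2% of all probes). The balance changed with time at P10, with 33 lower and 11 higher at 6 h (22.7% and 18.8% of all probes), 34 lower and 21 higher at 12 h (19% and 15.7%), and 16 lower and 45 higher at 24 h (25.1% each way).

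Among the large subunit proteins, Rpl4, which lines part of the exit tunnel for the nascent chain, had the highest ratio of the family at P10 24 h. Its single probe read 0.90, 0.70 and 0.90 on the 3 arrays at 24 h, 0.59, 0.54 and 0.61 at 12 h, 0.28, 0.52 and 0.57 at 6 h, and 0.22, 0.38 and 0.36 at 3 h. Every P10 array was above 0, and each array at 24 h exceeded each at the 3 earlier times. At 24 h the mean was 0.84 (SD 0.11, n = 3), or 1.79-fold, with an adjusted p of 7.7e-07 by limma. At P5 the means were 0.18, 0.13 (2 arrays), 0.22 and 0.28 at the 4 times, below the size limit throughout. The P10 24 h ratio was larger than the P5 one by 0.56 (adjusted p = 0.0131 by limma), a difference of less than 1.5-fold and so not past both limits. Here and below, limma estimated the spread of a probe from all HI groups together. With each age and time point fitted alone, no member was called higher at P10.

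The dyes were not swapped in the HI arrays, and the naive arrays give the size of the dye effect for each probe. Across the 8 naive arrays, whose dye orders balance, Rpl4 read 0.12 higher in Cy5 than in Cy3. With this taken out its P10 24 h ratio was 0.71 (adjusted p = 3.1e-06 by limma) and remained past both limits.

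The other bright members called higher had larger dye effects. Rpl23, a subunit protein at the interface of the subunits and an inhibitor of the p53 ligase Mdm2, read 0.86, 0.55 and 0.68 at P10 24 h on its brightest probe (mean 0.70, adjusted p = 3.7e-07 by limma), with a dye effect of 0.39. With this taken out, 0.30 was left. A second bright probe of Rpl23 read 0.42 (adjusted p = 0.00014) with a dye effect of 0.036, and the remaining, dim one read -0.14 (adjusted p = 0.059).

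Rpl7, another large subunit protein, read 0.76, 0.48 and 0.59 at P10 24 h on its brightest probe (mean 0.61, adjusted p = 1.5e-06 by limma), with a dye effect of 0.39. Its other 3 probes read 0.49, 0.32 and 0.29 with adjusted p between 1.1e-05 and 0.0012, and 2 of them had dye effects of -0.019 and -0.030. All 4 Rpl7 probes were thus above naive at 24 h, by less than 1.5-fold apart from the brightest.

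Rps14, a small subunit protein whose partial loss underlies a human bone marrow disorder, was the one member called at P5. Its single probe read 0.53, 0.46 and 0.80 at P5 6 h (mean 0.60, adjusted p = 0.00059 by limma), 0.79, 0.64 and 0.54 at P10 12 h (mean 0.66) and 1.19, 0.67 and 0.63 at P10 24 h (mean 0.83). The dye effect of this probe on the naive arrays was 0.67. With it taken out, the 3 values became -0.072, -0.011 and 0.16, of which none passed (adjusted p from 0.18 to 0.94). Without the highest array, that of replicate 3, the P5 6 h mean was 0.49, below the size limit.

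**Figure D2:**
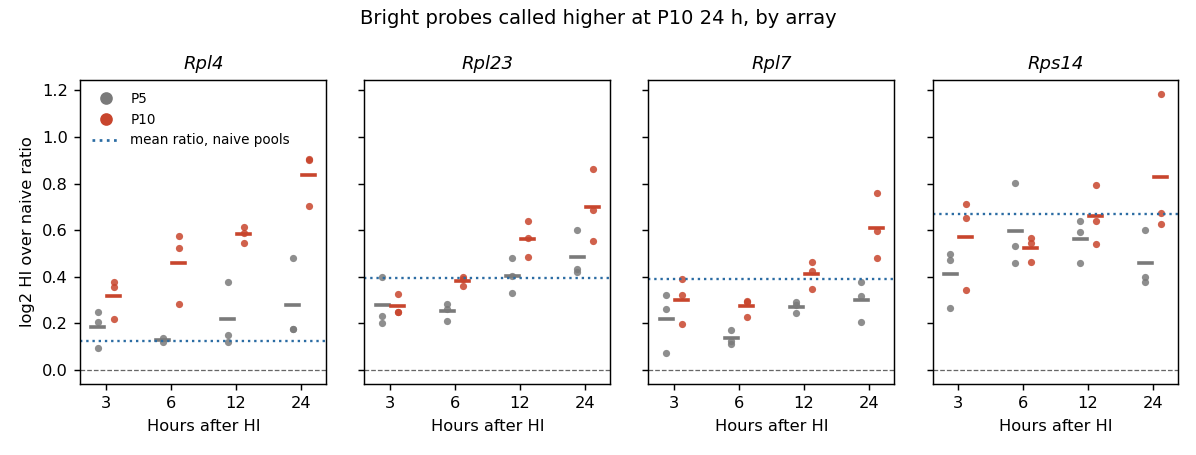
Log2 HI over naive ratio by array (points) and group mean (bars) for the 4 bright probes called higher at P10 24 h, at P5 (grey) and P10 (red), against hours after HI. The dotted line is the mean Cy5 over Cy3 ratio of the same probe on the 8 naive arrays, at 0.12 for Rpl4 and 0.67 for Rps14, and the P10 arrays of Rpl4 all lie above it.

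Rps6, the small subunit protein phosphorylated by the S6 kinases below mTOR, was called on its dimmest probe. It read 0.88, 0.45 and 0.63 at P10 24 h (mean 0.65, adjusted p = 0.0013 by limma), with a dye effect of 0.24, and its brightest probe read 0.19 (adjusted p = 0.0053). Other members whose brightest probe passed without the size limit at 24 h included Rpl28 (0.36) and Rps26 (0.36).

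The 6 genes called lower were called on dim probes. Their naive signal was 109 to 1123 units (median 553), whereas the median over the 163 member probes tested was 47229 units. These are hybridization signals of different probes and give no order of mRNA amounts. Of the 142 member probes with a naive signal of at least 10000 units, 0 were called lower in any group, whereas 0.106%, 1.01%, 1.43% and 6.48% of all probes that bright were lower at P10 3, 6, 12 and 24 h. Of the same 142, 1 was called higher at P5 6 h (0.903% of all probes that bright), 1 at P10 12 h (8.66%) and 4 at P10 24 h (5.26%). Of the 18 to 20 dimmer probes tested per group, 1, 3, 3 and 2 were called lower at P10 3, 6, 12 and 24 h (1.49%, 6.44%, 4.05% and 10.2% of all dimmer probes) and 1 higher at 24 h (9.75%). With normexp and loess, Rps25 (-0.64 at 6 h and -0.60 at 12 h) was the one gene left with a lower call at P10, and 8 genes were called higher at P5, among them Rps14 (1.08 at 6 h), Rpl35 (0.86) and Rps10 (0.68). All called probes were above background in both dyes on all 3 arrays of the group.

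Rps25, a small subunit protein needed for initiation at internal ribosome entry sites, had the lowest ratios of the family. Its dim probe read -0.74, -0.98 and -0.96 at P10 6 h (mean -0.89), -1.08, -0.61 and -1.24 at 12 h (mean -0.98) and -0.95, -0.69 and -0.87 at 24 h (mean -0.84). The adjusted p by limma was 4.8e-05, 4.4e-05 and 0.00011. All 9 values were below those of its bright probe, whose means were -0.23, -0.19 and -0.080, the first 2 with adjusted p of 0.0058 and 0.022. At P5 the dim probe gave means between -0.26 and 0.04, of which none passed.

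Rpl17, a large subunit protein beside the exit tunnel, has 7 probes on the array and fell on its dimmest one, with -0.58, -0.91 and -0.35 at P10 6 h (mean -0.61, adjusted p = 0.00051 by limma) and -0.75, -0.42 and -0.62 at 12 h (mean -0.60). The other 6 probes all read below 0 as well, from -0.49 to -0.15 at 6 h and from -0.43 to -0.19 at 12 h. The direction was therefore shared by all 7 probes, while the size passed the limit on 1.

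Rpl39, a small protein of the exit tunnel, read -0.79, -0.74 and -0.28 on its dim probe at P10 6 h (mean -0.60, adjusted p = 0.0017 by limma). Its 2 bright probes were also lower, at -0.37 and -0.25 (adjusted p = 0.0022 and 0.015). At 24 h the dim probe read -0.10, -0.02 and 0.75, so its arrays no longer lay on 1 side of naive.

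For Rpl14, Rpl31 and Rpsa, the dim and the bright probes differed. Rpl14, a large subunit protein, read -0.86, -0.43 and -0.54 on its dim probe at P10 3 h (mean -0.61, adjusted p = 0.0031 by limma) and 0.097 on its bright probe. Rpl31, at the rim of the exit tunnel, read -0.79, -0.33 and -0.71 at P10 24 h (mean -0.61, adjusted p = 0.0014) and 0.086 on its bright probe. Rpsa, a small subunit protein that also acts as a laminin receptor, read -0.76, -0.74 and -0.76 at P10 12 h (mean -0.75, adjusted p = 0.013) on a probe that reached the signal limit in 4 of the groups, and between -0.11 and 0.089 on its other 3 probes. Rpsa at P10 12 h and Rpl23 at P10 24 h had the widest spread between the probes of 1 gene, at 0.84 each, and no gene had probes called in opposite directions.

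**Figure D3:**
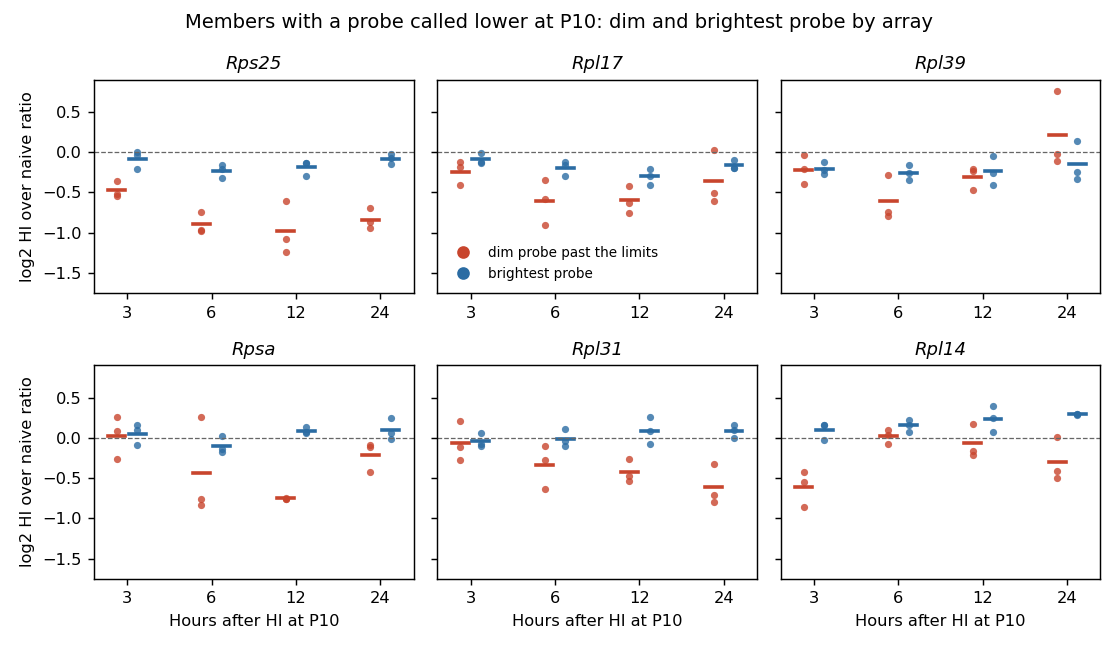
Log2 HI over naive ratio by array (points) and mean of 3 arrays (bars) at P10 for the 6 genes with a probe called lower, against hours after HI, with the dim probe in red and the brightest probe of the same gene in blue. The dim probe of Rps25 lies below the bright one at all 4 times, and the bright probes stay between 0.5 and -0.5.

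The acidic stalk proteins, which recruit elongation factors to the large subunit, changed little. Rplp0, the base of the stalk, read between 0.03 and 0.15 in the 8 groups on its brightest probe, none past the test (adjusted p from 0.35 to 0.85 by limma). Rplp1 passed once without the size limit, at P5 3 h (-0.22, adjusted p = 0.029), with a dye effect of -0.21. Rplp2 passed once, at P10 24 h (0.24, adjusted p = 0.0020), with a dye effect of 0.04.

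Of the members used as PCR references, Rpl19 did not pass in any group, with means between -0.10 and 0.08. Rps18 read -0.31, -0.43, -0.34 and -0.24 at P10 3, 6, 12 and 24 h on its brightest probe (adjusted p = 0.0035, 9.4e-05, 0.0011 and 0.0080 by limma). Its other probe read 0.02, -0.13, -0.07 and 0.0037, none of which passed. The dye effects of these probes were -0.14 and 0.21, and with the first taken out the bright probe still passed at 6 h (-0.29, adjusted p = 0.0029) and at 12 h (-0.20, adjusted p = 0.036).

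Rpl13a fell at P10 12 h on all 3 of its probes (-0.25, -0.30 and -0.30, with adjusted p of 0.0070, 0.0018 and 0.0021 by limma). The change was about 1.2-fold on each. Rpl32 read 0.35, 0.31, 0.31 and 0.33 at P5 and 0.30 at P10 24 h, each with an adjusted p of 0.0051 or less, and its dye effect was 0.27.

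Among paralogs of the family, Rps27l, a copy of Rps27 that p53 induces, moved up at P5 and down at P10, at different times. At P5 12 h it read 0.45, 0.49 and 0.40 (mean 0.45, adjusted p = 0.0027 by limma). At P10 it read -0.49, -0.48 and -0.39 at 3 h (mean -0.45, adjusted p = 0.0017) and -0.28, -0.79 and -0.29 at 6 h (mean -0.45, adjusted p = 0.00073). The P5 and P10 arrays thus lay on opposite sides of naive, each mean under the 1.5-fold limit. Rps4l, annotated as a transcribed pseudogene, read between -0.28 and 0.03 and did not pass in any group.

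Rpl22, a large subunit protein that also binds viral and cellular RNAs, differed between its probes after HI at P10. Its dimmer probe read 0.51, 0.45 and 0.54 at 12 h (mean 0.50, adjusted p = 5.3e-05 by limma). Its bright probe read -0.08, -0.18 and 0.14 there (mean -0.039, adjusted p = 0.76).

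Over the 24 HI arrays, the ratio profile of each gene's brightest probe was set against the median profile of the family, for the 75 genes with a ratio on every array. The profiles most like the median were those of Rpl27 (Pearson r = 0.86), Rpl22 (0.82) and Rps25 (0.82). Among those least like it were Rps24 (-0.25) and Rpl3 (-0.19). These values describe 24 arrays that share slides and an array design, and the median set against each gene left out that gene's own probes.

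Whether the HI effect differed with age was tested as P10 minus P5 at each time. Past both limits were 1 of 159 member probes at 3 h (0.123% of all probes), 3 of 159 at 6 h (5.2%), 1 of 160 at 12 h (1.48%) and 1 of 159 at 24 h (4.44%), all lower at P10. They were Rpl14 at 3 h (-1.06, SE 0.19), Rps25 at 6, 12 and 24 h (-0.93, -0.72 and -0.86, SE 0.19 each), Rpl17 at 6 h (-0.71, SE 0.17) and Rps27l at 6 h (-0.59, SE 0.13). The adjusted p by limma ran from 0.0054 to 0.041. Apart from Rps27l these were the dim probes described above.

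The family's median difference between the ages was -0.044, -0.10, -0.099 and -0.0019 at 3, 6, 12 and 24 h, beside 0.029, 0.010, 0.015 and 0.048 for all probes. At 6 h 17 of 159 member probes passed without the size limit (13.5% of all probes), all lower at P10. Without the 4 P5 arrays of slide 3, which stood apart in naive signal, the dim Rps25 probe no longer reached the signal limit at P5 and was not tested, and Rpl14 at 3 h missed the test (-1.08, adjusted p = 0.12 by limma). Rpl17 (-0.73, adjusted p = 0.039) and Rps27l (-0.64, adjusted p = 0.018) kept their calls at 6 h. Rps27l at 12 h (-0.60, adjusted p = 0.044) and Rpl4 at 24 h (0.66, higher at P10, adjusted p = 0.019) then passed too.

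Change over time was tested as 24 h minus 3 h within each age. At P5 0 of 160 member probes passed (1.63% of all probes), also with no size limit (2.43%). At P10 1 of 160 passed (5.35%), Rps6 on its dim probe at 0.66 (SE 0.20, adjusted p = 0.044 by limma). The call was lost when any 1 of 13 arrays was left out, and with the replicate number, here the slide, as a block (adjusted p = 0.052). Rpl4 rose from 3 to 24 h at P10 by 0.52 (adjusted p = 0.0046), under the size limit. The family's median difference was 0.054 at P5 and 0.074 at P10, and 128 of 160 members were above 0 at P10, compared with 45.1% of all probes.

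In naive mice, the level of a probe was its Cy3 signal on the log2 scale relative to the 75th percentile of its array, so 1 unit is a 2-fold difference. The family's median level depended on the slide as well as on the age. At P5 it was 5.06 on slide 1, 5.16 on slide 2 and 6.65 on slide 3, each over 4 arrays. At P10 it was 6.88, 6.94 and 6.57 on slides 4, 5 and 6. At P2 it was 5.81 on slide 7 and 5.57 on slide 8, and at P15 5.57 and 6.26 on the same slides.

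The difference among P5 slides was as large as that between P5 and P10. Slide 3 exceeded the mean of slides 1 and 2 by a median of 1.46 over members, and 158 of 159 member probes were higher, beside 0.22 and 58.7% for all probes. The Cy5 channel, which held HI RNA, differed in the same way (5.09 to 5.24 on slides 1 and 2, and 6.43 to 6.85 on slide 3). Ribosomal protein probes made up 6.21 to 6.65% of the Cy3 signal on slides 1 and 2 and 9.84 to 11.1% on slide 3. The median over all probes lay between -0.34 and -0.26 on all slides. Levels were scaled within each array, which removes a signal shift common to all probes before this median is taken. The median therefore cannot show whether the slides differed in the signal of all probes. The part of labelling, hybridization or RNA pools in the slide 3 difference was not tested. HI over naive ratios are taken within an array. With any 1 array left out, or all 4 P5 arrays of slide 3, the members' median ratios in the P5 groups ran from -0.0048 to 0.098.

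**Figure D4:**
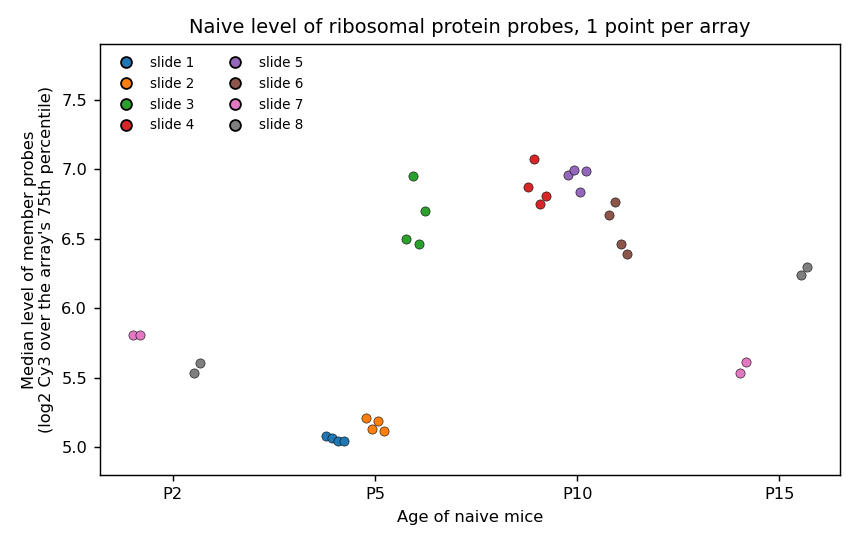
Median level of the ribosomal protein probes in naive mice on each of 32 arrays (points, log2 Cy3 signal over the 75th percentile of the array) by age, coloured by slide. The P5 arrays of slide 3 lie between 6.46 and 6.95, among the P10 arrays, and the other P5 arrays lie between 5.04 and 5.21.

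Changes with age were called by limma at 2-fold or more with an adjusted p under 0.001. From P2 to P5, 0 of 163 member probes passed (7.72% of all probes). From P5 to P10, 96 of 163 were higher (26.3%) and 1 was lower (17.8%), with a median change of 1.1 over members and 0.14 over all probes. Without the P5 arrays of replicate 3, that is slide 3, the median change was 1.55, and with normexp background correction and quantile normalization it was 0.26. From P10 to P15, 46 were lower (19.3%) and 0 higher (12.1%), with a median of -0.95, or -0.28 with normexp and quantile. Each of these steps compares ages on different slides. The fit also treats arrays that share a slide as independent, so its adjusted p does not measure the spread between slides.

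The largest steps were those of the dim Rps25 probe from P5 to P10 (2.56) and of Rps18 from P10 to P15 (-2.18 on its brightest probe and -2.37 on the other). Rpl4 stood apart from the family, with levels of 5.51, 5.03, 4.72 and 5.35 at P2, P5, P10 and P15. Its P10 minus P5 difference was -0.31 (adjusted p = 0.010 by limma), where 157 of 163 members were above 0, and its P15 minus P10 difference 0.63 (adjusted p = 0.00062), where 11 of 163 were above 0. Neither difference passed both limits.

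P2 and P15 shared slides and are the best matched pair. Past the limits, 2 of 163 member probes were lower at P15 (9.54% of all probes) and 0 were higher (10.5%). Rpl22 fell on its dimmer probe, from 3.35, 3.41, 3.38 and 3.36 at P2 to 1.88, 1.60, 1.75 and 1.57 at P15. The change was -1.68 (SE 0.15, adjusted p = 1.2e-10 by limma), and within slides 7 and 8 it was -1.64 and -1.71. The bright probe of Rpl22 changed by 0.50 (adjusted p = 0.28), so the 2 probes differed here as they did after HI.

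Rps15a, a small subunit protein, fell on a dim probe that reached the signal limit in 4 of the HI groups. It read -1.88, -1.81, -1.58 and -1.88 at P2 and -2.78, -3.12, -3.19 and -3.10 at P15, a change of -1.26 (SE 0.20, adjusted p = 4.8e-06 by limma) with -1.11 and -1.42 within the slides. All P15 arrays were below all P2 arrays for both genes. For the family as a whole the median P15 minus P2 change was 0.17, but -0.29 within slide 7 and 0.61 within slide 8, and 19 and 148 of 163 probes were higher on them. On both slides 19 probes were higher and 15 lower (11.7% and 9.2%), compared with 45.3% and 37.5% of all probes.

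The members with a larger slide 3 excess at P5 tended to have lower HI ratios on the P10 arrays. Spearman's rho between the slide 3 minus slides 1 and 2 difference in naive level and the P10 ratio was -0.34, -0.44, -0.49 and -0.46 at 3, 6, 12 and 24 h over 159 member probes, and -0.27, -0.28, -0.39 and -0.45 over 15986 probes in all. The dim Rps25 probe had the highest excess of the members (2.43). These are correlations across probes that share an array design, and probes are not replicates.

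Other genes of the protein synthesis machinery were counted by gene, a gene being called when 1 of its probes was. Over all genes tested, 10.1% were higher and 11.3% lower at P10 24 h by this count, 6.06% and 4.23% at 12 h, 7.55% and 6.7% at 6 h, and 3.96% and 1.57% at 3 h. Of 49 ribosome biogenesis factors tested, 15 were higher and 3 lower at P10 24 h, 6 higher and 1 lower at 12 h, and 0 passed at P5. Ddx21, a nucleolar helicase, read 1.98, Brix1, an assembly factor of the large subunit, 1.53, and Ncl, the nucleolar protein nucleolin, 1.52 at P10 24 h. The list's median over probes there was 0.27, beside 0.062 for the ribosomal proteins.

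Of 39 translation factors, 7 were higher and 0 lower at P10 24 h, led by the initiation factor subunits Eif3c (0.92) and Eif3j1 (0.87) and the elongation factor Eef1d (0.75). At P5 0 passed at any time. Of 77 mitochondrial ribosomal proteins, 9 were lower at P10 6 h, 7 at 12 h and 2 at 24 h, and 0 were higher. At 24 h their share lower was below that of all genes. Mrpl53 (-0.82) and Mrpl49 (-0.81) were the lowest at 6 h. The list's medians there were -0.22, -0.20 and -0.095.

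In a list of stress response genes and restraints of mTOR, 9, 11, 10 and 7 genes were higher at P10 (16 tested at 3 h and 17 later) and 7, 8, 4 and 2 of 17 at P5 (2.24%, 2.69%, 3.36% and 1.64% of all genes), with 0 lower. Atf3, a stress-induced transcription factor, read 4.57 at P10 3 h. Eif4ebp1, the translation repressor that mTOR inactivates, read 1.2 at P10 12 h. Of 7 genes for ribosomal proteins named outside the rule, 0 passed in any HI group. These lists were written with earlier results of the data known.

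**Figure D5:**
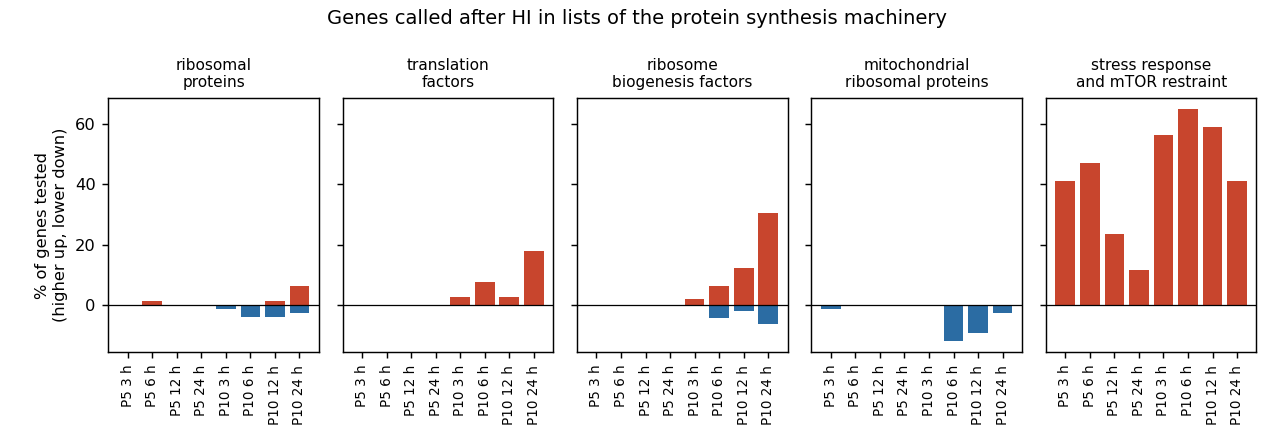
Share of genes tested in each of 5 lists that were called higher (red, up) or lower (blue, down) after HI, by age and time, in percent. Ribosome biogenesis factors reach 15 of 49 genes higher at P10 24 h, and the mitochondrial ribosomal proteins have bars below 0 alone.

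Markers of cell types moved in the same arrays. At P5, 6 of 7 erythroid markers were higher at 6 h and at 12 h (2.69% and 3.36% of all genes). Their summed change was 0.67 to 0.95 and 0.43 to 1.54 on the log2 scale over the 3 arrays. Of 11 microglia markers at P5, 4 were higher and 1 lower at 12 h (3.36% and 1.81% of all genes). At 24 h 6 were higher and 1 lower (1.64% and 0.424%). The lower one was P2ry12 (-1.45 and -1.16). At P10 24 h, where 10.1% of all genes were higher and 11.3% lower, 6 of 11 microglia markers were higher and 2 lower. Higher there were also 4 of 8 astrocyte markers, 4 of 7 markers of progenitors and immature neurons and 2 of 10 markers of dividing cells. Of 12 neuron markers 1 was higher, near the share of all genes. The summed signal of the microglia list changed by 0.27 to 0.71 on the log2 scale on these 3 arrays, that of neurons by -0.47 to -0.0041 and that of dividing cells by 0.14 to 0.40. At P10 6 h, 5 of 12 neuron markers were higher and 0 lower (7.55% and 6.7% of all genes), with a summed change of 0.40 to 0.62. The summed change of progenitors and immature neurons there was -0.81 to -0.60, with 2 of 7 markers higher and 1 lower. At P5 12 h, 4 of 12 neuron markers were lower and 0 higher (1.81% and 3.36% of all genes), with a summed change of -0.43 to -0.33. At P5 24 h, 1 neuron marker was lower and 0 higher (0.424% and 1.64% of all genes), with a summed change of -0.48 to -0.31. From P2 to P15, 10 of 11 dividing cell markers and 7 of 10 markers of progenitors and immature neurons were lower (9.54% of all probes). The part of these shifts in the ribosomal protein values was not tested.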

How the data were processed

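RNA from 32 arrays was measured on a 2-colour Agilent array. The authors extracted the scans with Agilent Feature Extraction 10.5.1.1, and the deposited intensity values, per the file headers, are spot signals from which background was subtracted and whose dyes were balanced by Lowess within the array. The deposited log10 values are the red over green ratio of those signals. Control spots and spots marked as outliers were left out and the spots of a probe averaged. Of 39429 probes, 12002 had no name in the RefSeq table and kept that of the files.

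Ratios were taken to log2 and fitted with limma 3.58.1 (R 4.3.3) over the 24 HI arrays, with 1 coefficient per age and time and Benjamini-Hochberg adjustment over all probes tested. Groups came from the sample labels. A probe needed a mean signal of 100 in 1 dye and 2 ratios, and a call an adjusted p under 0.05 and over 1.5-fold. Naive levels were log2 Cy3 signals minus the array's 75th percentile, fitted over 4 ages on 32 arrays, with calls at an adjusted p under 0.001 and 2-fold. The number of arrays limits the precision. The fits were tested on simulated data. Members, lists and named genes (members called, stalk proteins and Rpsa, paralogs, PCR references, widest probe spread, most and least typical profiles, and up to 5 developmental rises and falls) were chosen with earlier results of these data known. A gene's value is that of its brightest probe unless another is named. Each replicate number was 1 slide. At P5 all 18 pairs of arrays with the same number had deviations from the group means that correlated above 0.1 (lowest r 0.16), and the numbers were taken to pair the arrays, whereas at P10 9 of 18 did. Values of some single members are not reported here. Alternatives are given at the end. The series table, which repeats the log10 ratios, was used for a check alone. Plots used matplotlib 3.10.9 under Python 3.11.15.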

Additional observations from a re-analysis of the deposited data

Results flagged for a closer look

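The HI effect differed between P10 and P5 on probes of 4 ribosomal protein genes by the test of the difference itself (limma, all lower at P10). Age and slide cannot be told apart in this test. Rpl14 differed by -1.06 at 3 h on its dim probe, a call kept under 18 of 34 alternatives. Rps25 differed by -0.93 at 6 h, -0.72 at 12 h and -0.86 at 24 h on its dim probe, kept under 32, 19 and 27 of 32 alternatives. Without the P5 arrays of replicate 3 this probe did not reach the signal limit at P5 and was not tested. Rpl17 differed by -0.71 at 6 h on its dimmest probe (31 of 34) and Rps27l by -0.59 at 6 h (30 of 35). The 24 h effect of Rps6 at P10 exceeded that at 3 h by 0.66 on its dim probe, kept under 16 of 34 alternatives. Settings in which a probe was not tested are left out of these counts. The alternatives include a refit of the same ratios and leave-outs of arrays from other groups, which do not change the estimate. The counts are therefore no measure of independent repeats. In 58 sets of 4 naive arrays, 0 held an array far from the other 3 by Dixon's test.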

How the results depend on the processing

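Of the values that summarise a comparison, 175 were within the spread between arrays, or for counts within 1.5-fold, when 1 processing choice was changed, and 41 moved further. The cause of these moves was not tested. With the brightest probe of each gene alone, the median ratio was 0.10 at P5 24 h, 0.045 at P10 12 h and 0.098 at P10 24 h, 0 genes were lower at P10, 1 differed between ages (Rps27l), 0 differed between 24 h and 3 h at P10, and 0 were lower at P15 than at P2. With no signal filter, and with a filter on probes well above background, 2 genes were higher at P5, 0 differed between 24 h and 3 h at P10 and 1 was higher at P15 than at P2. With each age and time point fitted alone, 0 genes were higher at P10, 2 differed between ages and 0 between 24 h and 3 h at P10. With the dye bias taken out, the P10 12 h median was -0.012, 0 genes were higher at P5 and 1 at P10 (Rpl4), and Rps14 turned to -0.072 at P5 6 h and -0.011 at P10 12 h. With array medians centred the P10 12 h median was -0.011.

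With normexp and loess, the medians were 0.074, 0.18, 0.17 and 0.12 at P5 3, 6, 12 and 24 h and 0.0039, 0.035 and 0.092 at P10 6, 12 and 24 h, with 8 genes higher at P5, 1 lower at P10 and 0 that differed between 24 h and 3 h at P10. The methods' t-test left 0 genes higher at P5, 0 higher at P10 and 0 lower at P10 after Benjamini-Hochberg correction, and 1, 5 and 4 without it. With normexp and quantile, the naive P10 minus P5 change was 0.26, the P15 minus P10 change -0.28, and 1 gene was lower at P15 than at P2. With slide as random block, 1 gene was higher at P15 than at P2. Settings chosen after seeing the data were the 2 slides of P2 and P15 apart (median P15 minus P2 change of -0.29 on slide 7 alone and 0.61 on slide 8 alone), array medians centred for the naive levels, and all P5 arrays of replicate 3 left out.

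With the replicate block, which pairs the arrays at P5, 0 genes differed between 24 h and 3 h at P10 and 1 (Rpl27a) was higher at P15 than at P2, and no other summary count of calls moved by over 1.5-fold.

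With 1 array or the P5 arrays of replicate 3 left out, 436 summary values held and 23 moved. The P10 24 h median ran from 0.035 to 0.062. Genes higher at P5 ran from 0 to 2 (0 without P5 6 h replicate 3, 2 without P5 6 h replicate 1), genes higher at P10 from 3 to 5 (3 without P10 24 h replicate 1), and genes that differed between ages from 2 to 5 (2 without replicate 2 of P5 6 h or of P10 6 h). Genes that differed between 24 h and 3 h at P10 ran from 0 to 2 (2 without P10 24 h replicate 2), and genes higher at P15 than at P2 from 0 to 1 (1 without the P5 arrays of replicate 3). The naive P10 minus P5 change ran from 0.85 to 1.55 and the P5 minus P2 change from -0.51 to 0.22. Without P10 24 h replicate 1, Rpl7 (0.54), Rps6 (0.54) and Rpl31 (-0.52) fell short of 1.5-fold at 24 h, as did Rpl17 (-0.46) without P10 6 h replicate 2 and Rpl14 (-0.49) without P10 3 h replicate 1. Rpl39 was lost without P10 6 h replicate 1 or 2 and Rpsa without P10 12 h replicate 1 or 3. With 3 arrays per group, the number of arrays limits precision, and so does the low signal of the dim probes on which the lower calls after HI rest.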
